A study of Mus musculus with 2 samples.

Results

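Aquaporins are the channel proteins through which water crosses cell membranes, and their transcripts were read from Affymetrix mouse arrays of whole vaginal tissue from *Fbln5*-/- and WT mice. Every probe set annotated to exactly 1 of 9 aquaporin genes was taken (*Aqp1*, *Aqp2*, *Aqp3*, *Aqp4*, *Aqp5*, *Aqp7*, *Aqp8*, *Aqp9* and *Aqp11*), which gave 18 of the 45101 probe sets and 9 of the 18193 genes named on the arrays. The *Fbln5*-/- array carried RNA of female mice without fibulin-5, a secreted protein of elastic fibres whose loss leads to prolapse of the pelvic organs in mice. The WT array carried RNA of female mice with the gene intact. Both groups were of the C57/Bl6 strain, 6 months of age, ovariectomized and given estradiol at 50 µg/kg/d for 3 d, so that both had the same hormone supply. The labels place ovariectomy at 11 d, the series description places it at 2 weeks, and the methods place the start of estradiol 2 weeks after it.

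There was 1 array per genotype. No difference below has a replicate check, and no p-value or error between animals is given. Signals are MAS5 intensities, a brightness per probe set on a linear scale, scaled so that both arrays had the same median. A signal under 100 was treated as too low to give a level, and a ratio against it is given as a bound with the low signal taken as 100. A gene with several probe sets was represented by the one with the highest mean signal over both arrays, and 2-fold was the size of difference counted, on signals as measured unless stated otherwise. The signal of one probe set was not set against that of another, because probe sets differ in how brightly they bind. In whole tissue, fewer cells of a type and less RNA per cell cannot be told apart.

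The deleted gene itself, *Fbln5*, read 30.4 on the *Fbln5*-/- array and 410.4 on the WT array, at least 4.10-fold lower, and its other probe set was under 100 on both. The deposited signal was under 100 for 55.9% of *Fbln5*-/- probe sets and 54.8% of WT probe sets. The control probe set at the 5′ end of *Gapdh*, a glycolytic enzyme, read 794.7 on the *Fbln5*-/- array and 17262 on the WT array (log2 ratio −4.44), while that at its 3′ end read 13829 on the *Fbln5*-/- array and 13329 on the WT array (log2 ratio 0.05). For *Actb*, a cytoskeletal actin, the log2 ratios were −1.87 at the 5′ end and −0.18 at the 3′ end. Lower signals on the *Fbln5*-/- array stand beside these values, and where each aquaporin probe set lies along its transcript was not analysed here.

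Aquaporins form a pore that lets water pass along an osmotic gradient. The orthodox members (*Aqp1*, *Aqp2*, *Aqp4*, *Aqp5*) conduct water with high selectivity, *Aqp8* also passes small solutes such as ammonia and hydrogen peroxide, the aquaglyceroporins (*Aqp3*, *Aqp7*, *Aqp9*) also pass glycerol, and *Aqp11* is a distant member found in intracellular membranes. In stratified epithelia *Aqp3* is the member best known from the living cell layers, where it carries water and glycerol. *Aqp1* is known from capillary endothelium and red cells, *Aqp5* from the apical membrane of gland cells, and *Aqp4* from glia, fast skeletal muscle fibres and several secretory epithelia.

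Some of these genes sit side by side. In the GRCm38.p6 annotation *Aqp2*, *Aqp5* and *Aqp6* follow one another with no protein-coding gene between them, and so do *Aqp7* and *Aqp3*. The neighbours did not share a detection pattern. Of the first group only *Aqp5* reached 100 on either array, and of the second only *Aqp3* did. The stretch of 250 bases before the start of *Aqp3* and of *Aqp5* is given here because these are the members of each gene cluster that gave a signal of 100 or more on both arrays. Capitals mark the TATA motif TATAAA and the GC box GGGCGG on either strand, and both sequences are from RefSeq, build GRCm38.p6, 5′ to 3′ in the direction of the gene.
Aqp3, chr4:41098184-41098433, minus strand: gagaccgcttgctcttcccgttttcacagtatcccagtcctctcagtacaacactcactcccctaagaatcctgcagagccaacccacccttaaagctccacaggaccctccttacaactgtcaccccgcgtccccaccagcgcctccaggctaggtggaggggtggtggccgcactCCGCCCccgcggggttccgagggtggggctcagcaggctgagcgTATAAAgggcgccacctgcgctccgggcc
Aqp5, chr15:99590778-99591027, plus strand: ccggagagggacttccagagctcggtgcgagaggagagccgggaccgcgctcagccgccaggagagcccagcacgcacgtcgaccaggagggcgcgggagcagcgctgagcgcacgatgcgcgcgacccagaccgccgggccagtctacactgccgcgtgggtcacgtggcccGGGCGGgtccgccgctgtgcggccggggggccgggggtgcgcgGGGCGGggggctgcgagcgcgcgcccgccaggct

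The *Aqp3* window held 1 TATA motif, whose first base lies 29 bases before the start site, and 1 GC box, and 64% of its bases were G or C. The *Aqp5* window held 2 GC boxes and no TATA motif, with 78.4% G or C. Promoter windows were found for 8 of the 9 members, 10 windows in all. *Aqp4* had no window, so the motif counts do not cover it. The TATA motif was in the window of 1 of these 8 genes and the GC box in those of 3, and over all 32851 windows of this length, 12.4% held the TATA motif and 32.7% the GC box. Since all animals had received estradiol, the full estrogen response element (GGTCA, then 3 bases of any kind, then TGACC) was searched as well. All 3 motifs were searched on both strands, and overlaps between them were allowed. It was in none of the 10 windows and in 0.0639% of all windows. No match says only that these letters are not in this window.

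Of the 9 genes, 7 passed the limit of 100 on at least 1 array, and 5 of these (*Aqp1*, *Aqp3*, *Aqp4*, *Aqp5* and *Aqp9*) were at 100 or more on both. *Aqp11* passed only through the *Fbln5*-/- array and *Aqp8* only through the WT array, so that each could differ in 1 direction only. *Aqp2* and *Aqp7* were under 100 on both arrays. Higher by 2-fold or more on the *Fbln5*-/- array were 2 of the 7 measured genes, *Aqp4* and *Aqp11*, where 7.21% of all 11934 measured genes were as much higher. None of the 7 was at least 2-fold lower, where 4.77% of all measured genes were. With signals under 100 set to 100, *Aqp4* alone remained past 2-fold, beside 5.80% of all measured genes higher and 3.95% lower. Of the 5 genes at 100 or more on both arrays, 1 was at least 2-fold higher and 0 lower, beside 5.26% and 3.59% of all such genes. Counted by probe set, 11 of the 18 passed the limit, of which 4 were at least 2-fold higher (3 of *Aqp4*, 1 of *Aqp11*) and 2 lower (both *Aqp3*), beside 6.49% and 8.52% of all probe sets past it. The log2 ratios of the 7 genes ran from −0.95 to 2.98 with a median of 0.74, or 0.23 with signals under 100 set to 100, while the median over all measured genes was 0.16. That median shifted by 0.11 when the arrays were instead scaled to a median ratio of 1 among probe sets measured on both, which also turned the count of all genes higher and lower by 2-fold to 679 and 698, beside 861 and 569 in the main scaling.

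**Figure D1:**
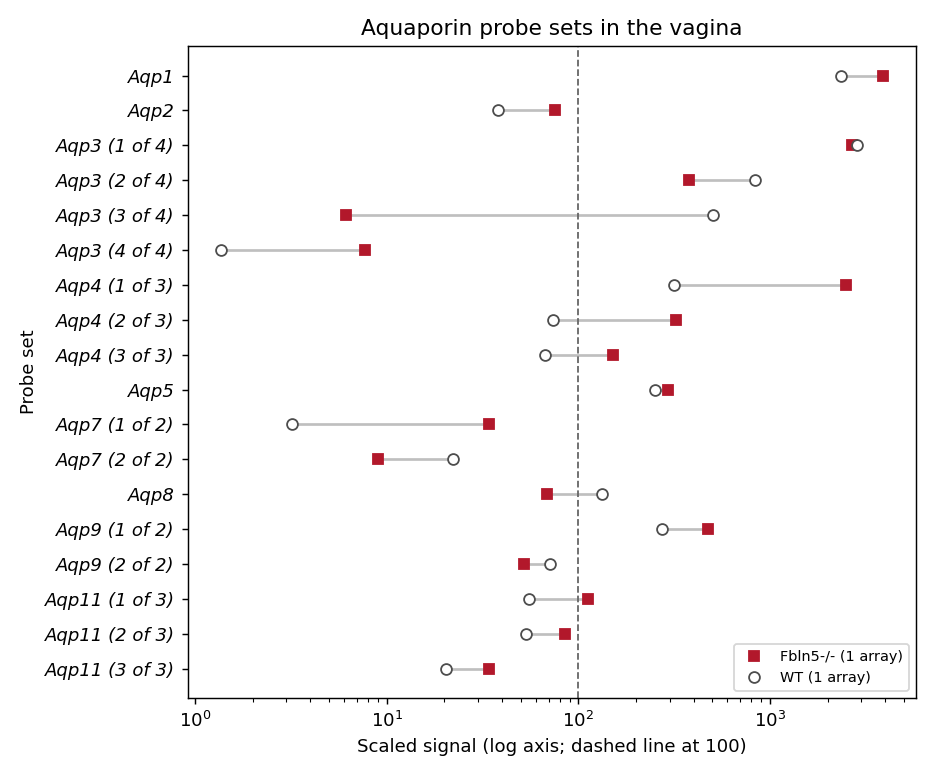
Scaled signal (horizontal log axis) of each of the 18 aquaporin probe sets (vertical axis, numbered within a gene by mean signal) on the *Fbln5*-/- array (filled squares) and the WT array (open circles), 1 array each, with a dashed line at 100. All 3 *Aqp4* probe sets lie to the right on the *Fbln5*-/- array, the first *Aqp3* probe set reads almost the same on both (2670 and 2855), and 7 of the 18 are under 100 on both arrays.

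*Aqp4*, the water channel that packs into square arrays in glial endfeet and in the surface membrane of fast muscle fibres, had the largest ratio among the 7 measured genes when each was read at its probe set with the highest signal. With the mean over probe sets past the limit, its log2 ratio was 2.10 and that of *Aqp3* −2.53. Its probe set with the highest signal read 2479 on the *Fbln5*-/- array and 314.4 on the WT array, 7.89-fold higher (log2 ratio 2.98). The next read 324.7 on the *Fbln5*-/- array and 74.0 on the WT array, at least 3.25-fold higher. The dimmest read 151.8 on the *Fbln5*-/- array and 66.9 on the WT array, at least 1.52-fold higher. All 3 probe sets were thus higher on the *Fbln5*-/- array, although the 2 dimmer ones passed the limit only through that array and could not have been lower. Among the 10990 genes at 100 or more on both arrays, 34, with *Aqp4* counted, had a log2 ratio at least as high as that of *Aqp4*.

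The orthodox channels *Aqp1* and *Aqp5* differed less, and *Aqp2* and *Aqp8* were under 100 on at least 1 array. *Aqp1*, the channel of capillary endothelium and red cells, had a signal of 3904 on the *Fbln5*-/- array and 2343 on the WT array, 1.67-fold higher at its only probe set (log2 ratio 0.74). *Aqp5*, the apical channel of gland cells, read 295.0 on the *Fbln5*-/- array and 251.0 on the WT array (log2 ratio 0.23). *Aqp2*, the channel that vasopressin moves to the membrane in the kidney collecting duct, read 75.5 on the *Fbln5*-/- array and 37.9 on the WT array, both too low for a ratio. *Aqp8* read 68.7 on the *Fbln5*-/- array and 132.4 on the WT array, at least 1.32-fold lower. *Aqp1* and *Aqp5* were therefore within 2-fold between the genotypes, *Aqp8* was near the limit of 100, and *Aqp2* was below it.

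*Aqp3*, the glycerol and water channel of stratified epithelium, gave values that depended on the probe set. At the probe set with the highest signal it read 2670 on the *Fbln5*-/- array and 2855 on the WT array (log2 ratio −0.10), almost level. At the second it read 377.8 on the *Fbln5*-/- array and 837.2 on the WT array, 2.22-fold lower, and at the next 6.17 on the *Fbln5*-/- array and 506.6 on the WT array, at least 5.07-fold lower. The remaining one was under 100 on both, at 7.71 on the *Fbln5*-/- array and 1.36 on the WT array. The annotation gives the same GenBank record for the first 3, so they are listed as readings of one transcript sequence. With signals taken as measured, their log2 ratios spread over 6.26, a range that rests on the reading of 6.17, far under 100. The lower readings stand beside the 5′ control of *Gapdh* at −4.44, and the part of transcript ends in them was not tested.

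Of the remaining aquaglyceroporins, *Aqp9* gave a level on both arrays and *Aqp7* on neither. *Aqp9*, known from hepatocytes and leukocytes, read 472.8 on the *Fbln5*-/- array and 273.3 on the WT array at 1 probe set, 1.73-fold higher (log2 ratio 0.79). Its second probe set was under 100 on both, with 51.9 on the *Fbln5*-/- array and 71.2 on the WT array. *Aqp7*, the glycerol channel of fat cells, read 34.1 on the *Fbln5*-/- array and 3.21 on the WT array at 1 probe set. At the other it read 9.05 on the *Fbln5*-/- array and 22.1 on the WT array. The *Aqp7* probe sets thus went opposite ways at signals too low for a ratio.

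*Aqp11*, the intracellular member, hovered around the limit. It read 112.0 on the *Fbln5*-/- array and 55.2 on the WT array at 1 probe set, at least 1.12-fold higher. The 2 others read 85.2 and 34.0 on the *Fbln5*-/- array, against 53.2 and 20.4 on the WT array. All 3 were numerically higher on the *Fbln5*-/- array, and its place among the genes past 2-fold came from a WT signal under 100.

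**Figure D2:**
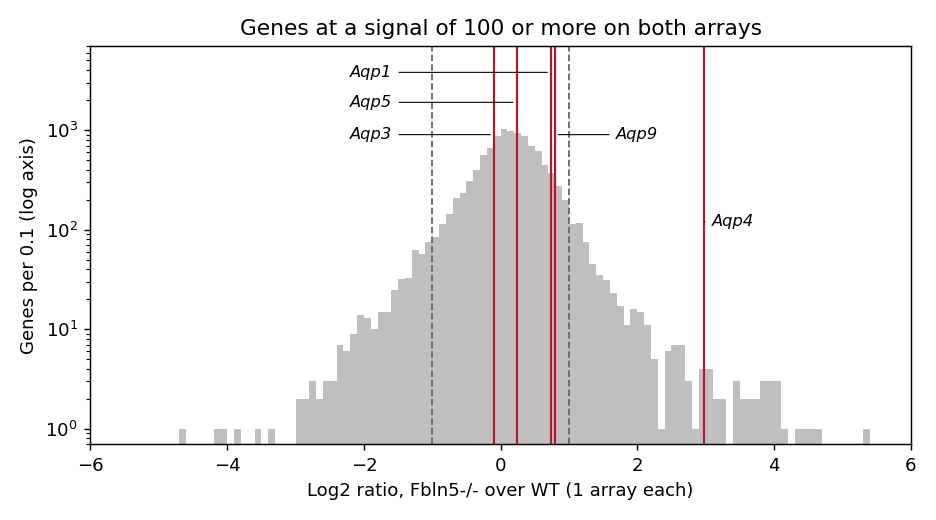
Number of genes per 0.1 of log2 ratio (vertical log axis) against the log2 ratio of *Fbln5*-/- over WT (horizontal axis) for the 10990 genes at 100 or more on both arrays, 1 array each. Red lines mark the 5 aquaporins among them and dashed lines a 2-fold difference, with *Aqp4* at 2.98 outside the bulk and *Aqp3* (−0.10), *Aqp5* (0.23), *Aqp1* (0.74) and *Aqp9* (0.79) inside it.

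The 3 other aquaporin genes on the arrays gave no level either. *Mip*, the channel of lens fibres, was at most 7.61 on the *Fbln5*-/- array and 13.5 on the WT array over 2 probe sets. *Aqp6*, a channel of acid-secreting kidney cells, was at most 58.5 on the *Fbln5*-/- array and 67.2 on the WT array over 4 probe sets. *Aqp12*, known from the pancreas, read 12.5 on the *Fbln5*-/- array and 22.0 on the WT array.

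*Aqp3* is a channel of the living epithelial layers, and the markers of these layers were near level at their probe sets with the highest signal. There, none of the 9 markers of basal and suprabasal epithelium measured was 2-fold higher or lower, beside 7.21% and 4.77% of all measured genes. The median log2 ratio of the 9 was 0.13. Their summed signal was 127096 on the *Fbln5*-/- array and 114260 on the WT array. Dimmer probe sets did not all follow. That of *Dsc3* read 112.7 on the *Fbln5*-/- array and 529.1 on the WT array, 4.69-fold lower. Those of *Trp63* were 2.78-fold lower, at least 2.86-fold lower and at least 1.29-fold higher. *Krt13*, a keratin of such layers, read 21197 on the *Fbln5*-/- array and 19999 on the WT array. The vaginal epithelium that the label implies was thus present on both arrays.

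Markers of glandular and secretory epithelium, the kind of cell in which *Aqp5* and *Aqp4* are also known, were split. *Krt7*, a keratin of simple epithelia, read 7278 on the *Fbln5*-/- array and 7444 on the WT array. Of 11 markers measured, 4 were higher by 2-fold or more and 0 lower, beside 7.21% and 4.77% of all measured genes. Once low signals were raised to 100 the counts were 3 and 0, beside 5.80% and 3.95%. The median log2 ratio of the 11 was 0.46. *Pigr*, the receptor that carries immunoglobulins across mucosal epithelium, read 884.9 on the *Fbln5*-/- array and 114.0 on the WT array. *Foxa1*, a transcription factor of glandular epithelia, read 955.2 on the *Fbln5*-/- array and 77.0 on the WT array. *Bpifa1*, a secreted protein of the airway surface, read 333.8 on the *Fbln5*-/- array and 2.43 on the WT array. The remaining one was *Muc4*, a membrane mucin, at least 1.45-fold higher. *Foxa1*, *Bpifa1* and *Muc4* were under 100 on the WT array and could differ in 1 direction only. On the other side of 0 and within 2-fold, the mucin *Muc5b* had a log2 ratio of −0.56, and *Foxa2*, a transcription factor of glandular epithelia, read 87.3 on the *Fbln5*-/- array and 132.8 on the WT array. The part of such cells in the *Aqp4* value was not tested.

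*Aqp4* is also a channel of fast skeletal muscle, and 3 of 10 skeletal muscle markers with a level were 2-fold or more higher on the *Fbln5*-/- array, with 0 lower. Over all measured genes, 7.21% were as much higher and 4.77% lower. *Myh1*, a fast myosin heavy chain, read 1923 on the *Fbln5*-/- array and 570.2 on the WT array (log2 ratio 1.75). *Ryr1*, the calcium release channel of muscle, read 299.8 on the *Fbln5*-/- array and 111.4 on the WT array, and *Myh2*, another fast myosin, had a log2 ratio of 1.14. *Acta1*, skeletal actin, had a log2 ratio of 0.35. *Ckm* went the other way, at 671.1 on the *Fbln5*-/- array and 829.2 on the WT array (log2 ratio −0.31). The median over the 10 was 0.53 (0.46 with signals under 100 set to 100), and their summed signal was 8482 on the *Fbln5*-/- array and 5734 on the WT array. The ratio of *Aqp4* was above that of each of these markers, and the part of muscle in it was not tested.

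In muscle and glia *Aqp4* is held in place by the dystrophin complex. Of its 7 genes with a level, 0 were 2-fold or more higher and 1 was lower (0 once low signals were raised to 100), with a median log2 ratio of 0.10. The shares over all measured genes were 7.21% higher and 4.77% lower. *Dag1*, the dystroglycan that links the complex to the matrix, read 4834 on the *Fbln5*-/- array and 3214 on the WT array (log2 ratio 0.59). *Dtna*, a dystrobrevin and the 1 lower gene, read 51.1 on the *Fbln5*-/- array and 128.4 on the WT array. Of the nerve and glia markers, 5 were measured and had a median log2 ratio of 0.37. *Tubb3*, a neuronal tubulin, read 547.6 on the *Fbln5*-/- array and 588.7 on the WT array, and *S100b*, a glial calcium-binding protein and the 1 gene past 2-fold, was at least 1.29-fold higher.

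*Aqp1* is the channel of vessels and red cells. None of the 10 endothelial markers was 2-fold higher or lower, beside 7.21% and 4.77% of all measured genes. The median log2 ratio of the 10 was 0.00, within a range from −0.87 (*Pecam1*) to 0.997 (*Vwf*). *Plvap*, a protein of fenestrated capillaries, read 1379 on the *Fbln5*-/- array and 1925 on the WT array. Of 7 erythroid markers only 5 were in the annotation used, so the others were not read. Those 5 were all under 100, with the highest reading at 19.8 on the *Fbln5*-/- array and 65.4 on the WT array.

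**Figure D3:**
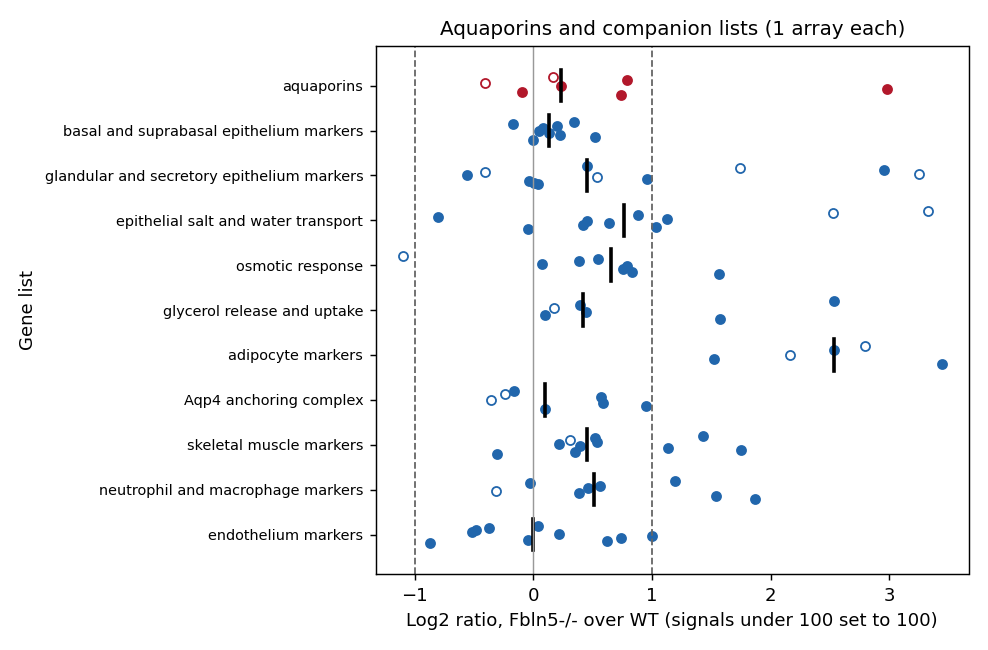
Log2 ratio of *Fbln5*-/- over WT (horizontal axis, 1 array each, signals under 100 set to 100) of the 7 measured aquaporins (red) and of genes in 10 companion lists (blue). Filled circles had a level on each array and open circles are bounds, black bars are medians and dashed lines mark 2-fold. The aquaporins have a median of 0.23 with *Aqp4* at 2.98, and the adipocyte list lies furthest to the right.

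The channels and pumps that set up the osmotic gradients which aquaporins follow were measured for 10 genes. Of these, 4 passed 2-fold upward on the *Fbln5*-/- array and 0 downward, beside 7.21% and 4.77% of all measured genes. The median log2 ratio of the 10 was 0.76. *Slc26a4*, the anion exchanger pendrin, read 1007 on the *Fbln5*-/- array and 59.6 on the WT array, at least 10.1-fold higher. *Clca1*, a secreted modulator of chloride conductance, read 576.1 on the *Fbln5*-/- array and 31.9 on the WT array, at least 5.76-fold higher. Both were under 100 on the WT array and could differ in 1 direction only. *Atp1b1*, a sodium pump subunit, had a log2 ratio of 1.12 and *Scnn1b*, a subunit of the epithelial sodium channel, one of 1.04. *Slc9a3r1*, a scaffold of apical transporters, read 12418 on the *Fbln5*-/- array and 9097 on the WT array. On the other side of 0, *Scnn1a* had a log2 ratio of −0.05. *Kcnn4* read 232.3 on the *Fbln5*-/- array and 405.5 on the WT array (log2 ratio −0.80), and its other probe set was 2.53-fold lower.

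Of 8 osmotic response genes measured, 1 was at least 2-fold higher and 1 lower, beside 7.21% and 4.77% of all measured genes. The median log2 ratio of the 8 was 0.65. *Nfat5*, the transcription factor of the response to high salt, read 1177 on the *Fbln5*-/- array and 397.8 on the WT array at its probe set with the highest signal (log2 ratio 1.57). Its 2 other probe sets past the limit were at least 1.29-fold and at least 1.05-fold higher. *Trpv4*, a cation channel opened by cell swelling, read 89.6 on the *Fbln5*-/- array and 214.4 on the WT array, at least 2.14-fold lower. *Wnk1*, a kinase that sets chloride transport by osmolarity, had a log2 ratio of 0.79. Of the vasopressin and oxytocin receptors, 2 of 4 were measured and neither was past 2-fold, with *Oxtr*, the oxytocin receptor, at 1762 on the *Fbln5*-/- array and 3376 on the WT array. Its other probe set was 2.10-fold lower.

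The glycerol that aquaglyceroporins carry is released by fat breakdown. Among 6 genes of glycerol release and uptake with a level, 2 were 2-fold or more higher on the *Fbln5*-/- array and 0 lower. Over all measured genes, 7.21% were as much higher and 4.77% lower. The median log2 ratio of the 6 was 0.57 (0.42 once low signals were raised to 100). *Lpl*, the lipase that frees fatty acids from lipoproteins, read 3740 on the *Fbln5*-/- array and 644.5 on the WT array. *Gpd1*, the cytosolic glycerol phosphate dehydrogenase, read 317.6 on the *Fbln5*-/- array and 106.6 on the WT array. *Gpd2*, its mitochondrial counterpart, read 2280 on the *Fbln5*-/- array and 2131 on the WT array. The rest of the list was within 2-fold at the probe sets with the highest signal. *Pnpla2* had a log2 ratio of 0.44 and *Mgll* one of 0.39. *Lipe*, under 100 on the WT array, was at least 1.13-fold higher. Among dimmer probe sets past the limit, those of *Gpd2* had log2 ratios of −0.22 and −1.19. Those of *Mgll* had 0.59 and −1.21, while those of *Lpl* and *Gpd1* were higher. Of 10 adipocyte markers, 8 were in the annotation used and 5 of these had a level, while the rest of the 8 stayed under 100. All 5 adipocyte markers with a level were 2-fold or more higher on the *Fbln5*-/- array, where 7.21% of all measured genes were as much higher. Their summed signal was 11719 on the *Fbln5*-/- array and 2773 on the WT array. Among them were *Adipoq*, the adipokine adiponectin (log2 ratio 3.44), and *Fabp4*, a fatty acid carrier (1.53). The 3 others were *Ucp1*, *Lpl* and *Retn*. *Lpl* is in both lists, and *Ucp1* and *Retn* passed the limit only through the *Fbln5*-/- array. Although *Aqp7* is the glycerol channel of fat cells, its signals stayed at or under 34.1 on both arrays.

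*Aqp9* is known from leukocytes, and 3 of 8 neutrophil and macrophage markers were 2-fold or more higher on the *Fbln5*-/- array, while 1 was lower (3 and 0 once low signals were raised to 100). Over all measured genes, 7.21% were as much higher and 4.77% lower (5.80% and 3.95% once low signals were raised to 100). *S100a8* and *S100a9*, the subunits of calprotectin, had log2 ratios of 1.87 and 1.54, and *Cd14*, a receptor for bacterial lipopolysaccharide, one of 1.19. *Csf1r*, the macrophage growth factor receptor, had a log2 ratio of 0.56, and *Ngp*, a neutrophil granule gene, was the 1 lower gene at 47.5 on the *Fbln5*-/- array and 124.7 on the WT array. The summed signal of the list was 12002 on the *Fbln5*-/- array and 6106 on the WT array. *S100a8* and *S100a9* are also made by keratinocytes, and the part of leukocytes in the *Aqp9* value was not tested.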

How the data were processed

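RNA of 1 *Fbln5*-/- and 1 WT sample was hybridised to Affymetrix mouse expression arrays (430 2.0). The study's methods name 2 animals in each group, and whether RNA was pooled is not given in the sources used here. The authors deposited signal intensities made with MAS5 per the labels (its version is not given in the sources used), with a 2% trimmed mean of 500.0 on both arrays.

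Intensities were multiplied by 1.03 (*Fbln5*-/-) and 0.972 (WT) to a common median (50th percentile, after the study's methods). The 1 signal of 0, on the WT array, was replaced by 0.1. Probe sets that reached 100 on either array were kept (21508, control probe sets left out), where the study also used detection calls. Symbols came from the platform annotation, in which 34958 probe sets have 1 gene, 932 several and 9211 are not listed, and 34754 matched the GRCm38.p6 gene table. Probe sets with several genes named none. The files name no genome build, so that table served for names and gene order only.

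With 1 array per genotype no test was made, and the number of arrays limits the precision. Named genes were all aquaporins and, per list, the gene with the highest signal and up to 3 with the largest ratios past 2-fold. Genes that complete a count of 5 or fewer (*Muc4*, *Scnn1b*, *Retn*, *Dtna*, *Ngp*, *S100b*, *Upk1a*) were named after their values were seen. So were *Muc5b*, *Foxa2*, *Dsc3*, *Trp63*, *Kcnn4*, *Scnn1a*, *Ckm*, *Pnpla2*, *Mgll*, *Lipe*, *Pecam1*, *Vwf*, *Des* and *Myh11*. Members and lists were chosen with earlier results of these data known. The steps were tested on simulated arrays. Python 3.11.15, numpy 2.4.6, pandas 2.3.3 and matplotlib 3.10.9 were used.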

Additional observations from a re-analysis of the deposited data

How the results depend on the processing

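With 1 array per genotype no leave-one-out was possible, and no paired analysis was possible because the result comes from no test. The count of measured aquaporins at least 2-fold higher was 2 in the main processing and 1 on the deposited scale, at the 75th percentile, with the median ratio set to 1, at 200 on at least 1 array, at 100 on both arrays, with signals under 100 set to 100, with 32 added, without _x_at, _s_at and _a_at probe sets and at 3-fold. With no filter it was 3 of 9 genes. *Aqp4* was past the threshold wherever the count was 1, and *Aqp11* was not. The count lower was 0, and 1 on the deposited scale and with the median ratio set to 1 (*Aqp8*), with the mean over probe sets and, chosen after seeing the data, with the probe set of second-highest signal (*Aqp3*). Over the alternatives that give a ratio, the log2 ratio of *Aqp4* lay between 2.10 (the mean over probe sets) and 2.98, that of *Aqp1* between 0.63 and 0.74 and that of *Aqp3* between −2.53 and −0.10. No log2 ratio of the 7 genes changed sign under any alternative that gave one. The list median was 0.74, and between 0.23 (signals under 100 set to 100) and 0.79 (no filter) over the alternatives. Over all genes, the share of 2-fold differences that were higher was 60.2%, 49.3% with the median ratio set to 1, 48.3% with the mean over probe sets and 44.2% with the second-highest probe set. Counts of all genes at least 2-fold higher and lower were 2048 and 1535 with no filter, 316 and 211 at 3-fold, 779 and 835 with the mean and 848 and 1070 with the second-highest probe set, against 861 and 569.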

Other observations

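Aquaporins are also well known from the kidney. Of 8 kidney and urinary epithelium markers, 2 were measured. *Upk2*, a uroplakin of bladder epithelium, read 441.8 on the *Fbln5*-/- array and 463.8 on the WT array. *Upk1a*, another uroplakin and the 1 gene past 2-fold, read 45.0 on the *Fbln5*-/- array and 126.7 on the WT array, at least 1.27-fold lower. The smooth muscle list was level, with none of its 7 genes past 2-fold, a median log2 ratio of −0.02 and *Acta2*, smooth muscle actin, at 16566 on the *Fbln5*-/- array and 15045 on the WT array.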
